A study of Mus musculus with 6 samples.

Results

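The enzymes described here conjugate lipophilic compounds or split their esters. They were taken by name, as every probe set whose single gene symbol belongs to the UDP-glucuronosyltransferases of families 1 and 2 (UGT), the cytosolic sulfotransferases (SULT), the soluble glutathione S-transferases (GST) or the carboxylesterases (CES). This gave 69 of 45037 probe sets, of 54 of 18161 genes. The UGT class held 9 probe sets of 8 genes, the SULT class 15 of 13, the GST class 27 of 20 and the CES class 18 of 13. The values came from 6 arrays of the mouse small intestine at E18.5, shortly before birth, from C57BL/6 dams, 3 of the detached epithelium (A, B and C) and 3 of the mesenchyme left behind (A, B and C). Each array carried RNA of 1 pool of tissue from 3 embryos, and the pools had been chosen for purity by RT-PCR among a larger number. No treatment or mutant allele was stated for either tissue. The labels do not say whether pools of both tissues came from the same embryos.

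Phase II enzymes attach a polar group to a compound so that it dissolves in water and can be pumped out of the cell. UGTs, bound to the endoplasmic reticulum, add glucuronic acid from UDP-glucuronate; SULTs add sulfate from the donor PAPS; GSTs add the tripeptide glutathione. Carboxylesterases hydrolyse esters and amides of drugs, dietary compounds and lipids, and so expose groups that can then be conjugated. In the adult gut these enzymes form a first barrier to absorbed compounds, and many are induced through the nuclear receptors PXR and CAR, the Ah receptor and the factor Nrf2.

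Epithelium-enriched genes numbered 18 of the 54, against 1 mesenchyme-enriched gene, and 35 did not pass. A gene passed at an adjusted p under 0.05 in limma (Benjamini-Hochberg over all genes) with at least a 2-fold difference, and it was represented by its brightest probe set. Among all genes tested, 8.19% were higher in the epithelium by the same rule and 15.9% in the mesenchyme, against 33.3% and 1.85% of the members. The shares over all genes depended on the scaling of the arrays and came to 11.8% higher in the epithelium and 11.2% in the mesenchyme with ribosomal protein genes as the common level, and to 6.21% and 21.3% with spike-in controls. The members passed in unequal shares per class: 5 of 8 UGT genes, 3 of 13 SULT genes, 7 of 20 GST genes and 3 of 13 CES genes were higher in the epithelium, and the gene higher in the mesenchyme was the sulfotransferase gene Sult1a1. Differences below are epithelium minus mesenchyme on the log2 scale ± the standard error from limma, with 3 arrays per tissue. The median difference was 2.08 for UGT genes, -0.10 for SULT genes, 0.67 for GST genes and 0.07 for CES genes, beside -0.17 for all genes. Differences of at least 16-fold were found for 7 members, spread over all 4 classes, and for 0.661% of all genes in the same direction. A further 3 GST genes were higher in the epithelium and 2 SULT genes in the mesenchyme at an adjusted p under 0.05 but by less than 2-fold; with no fold threshold, 13.8% and 27.4% of all genes passed in these directions (10.7% and 26.8% of probe sets). All 3 epithelial arrays lay above all mesenchymal ones for 24 members, and below them for 8, beside 16% and 30.5% of all genes. Counted by probe set, 23 of 69 members were higher in the epithelium and 1 in the mesenchyme, beside 5.98% and 15.5% of all probe sets.

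**Figure D1:**
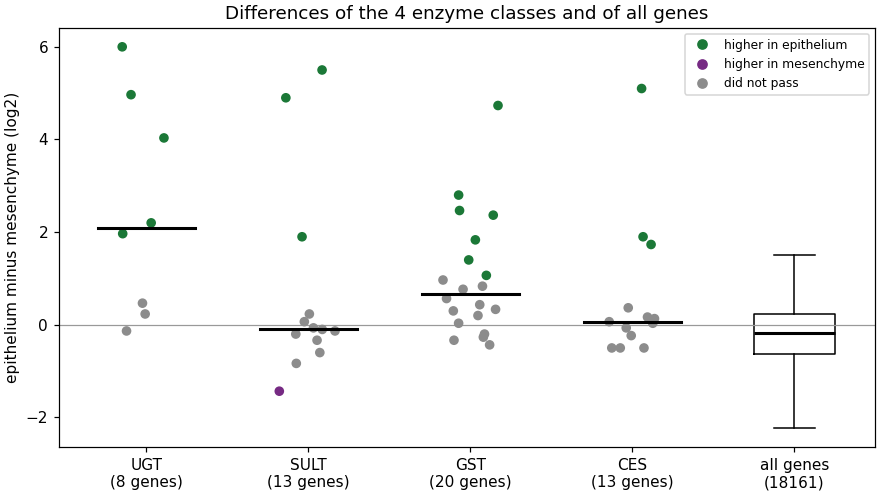
Difference between epithelium and mesenchyme (log2, vertical axis) of each member gene by class, with a black line at the class median, beside a box plot of all 18161 genes (box from the lower to the upper quartile, whiskers from the 5th to the 95th percentile). Ugt2b5, Sult1d1, Ces2e and Gsta2 lie at 6.00, 5.50, 5.10 and 4.73 at the top of their classes, and Sult1a1 lies at -1.43.

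Markers of the tissues followed the labels. All 6 epithelial markers (Vil1, Epcam, Cdh1, Prkg2, Cdh17 and Krt20) were higher in the epithelium and all 6 mesenchymal markers (Vim, Actg2, Col1a1, Col3a1, Madcam1 and Pdgfra) higher in the mesenchyme, although Vil1, Prkg2, Vim, Madcam1 and Actg2 had served to choose the pools. In a tissue sample, fewer cells of a type and less RNA per cell cannot be told apart. Because liver expresses many of these enzymes, 10 hepatocyte markers were examined. Of these, Serpina1b, Ttr and Fgb were higher in the epithelium, Cyp3a11 was higher in the mesenchyme and 6 did not pass, and albumin (Alb) was at 8.8, 8.7 and 9.1 in epithelium A, B and C, against 8.6, 8.5 and 9.3 in mesenchyme A, B and C. The mean level of the hepatocyte list ranged from 8.77 to 9.16 in epithelial arrays and from 8.31 to 8.65 in mesenchymal arrays, and its part in the results was not tested. None of 5 measured pancreatic markers passed, and all 3 vessel markers, 2 of 3 immune markers and 1 of 2 markers of enteric glia and neurons were higher in the mesenchyme. Csf1r, the immune marker that did not pass, was at 13.4, 13.8 and 13.5 in the epithelium, against 13.2, 13.1 and 13.2 in the mesenchyme. It raised the mean of the immune list in both tissues. The mean levels of the vessel, immune and enteric lists ranged from 7.43 to 9.37 in epithelial arrays and from 10.4 to 12.1 in mesenchymal arrays. That of the pancreatic list ranged from 8.16 to 8.56 in epithelial arrays and was 9.36, 8.22 and 8.60 in mesenchyme A, B and C. Of this list, Cpa1 (-0.90 ± 0.23) and Cela2a (-0.93 ± 0.30) were higher in the mesenchyme at a limma adjusted p under 0.05 but by less than 2-fold. The others did not reach that adjusted p.

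The differences of the glucuronosyltransferase genes were graded, from 6.00 for Ugt2b5 to -0.13 for Ugt2b38. Those that did not pass were at low values in both tissues. Ugt2b5 had values of 11.5, 12.2 and 11.7 in epithelium A, B and C, against 5.6, 5.8 and 6.0 in mesenchyme A, B and C. The epithelial arrays lay far above the mesenchymal ones, which were close to the mean of 27 control probe sets for Bacillus transcripts (5.87 to 6.25 per array). The difference was 6.00 ± 0.24, or 64-fold (adjusted p = 1.41e-21). Ugt2b34 was at 12.3, 12.7 and 12.3 in the epithelium, against 7.2, 7.1 and 8.1 in the mesenchyme, with mesenchyme C the highest of its tissue. It differed by 4.97 ± 0.25 (31.3-fold, adjusted p = 9.80e-19), and its other probe set by 4.40 ± 0.24. For Ugt2b35 the values were 10.0, 10.8 and 10.5 in the epithelium, against 6.3, 6.3 and 6.6 in the mesenchyme, a difference of 4.03 ± 0.24 (16.4-fold, adjusted p = 7.44e-17) with no overlap between the tissues.

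Ugt2a3, whose human counterpart conjugates bile acids, and Ugt2b36 were higher in the epithelium by less. Ugt2a3 had values of 8.3, 9.3 and 8.8 in the epithelium, against 6.3, 6.5 and 7.0 in the mesenchyme, a difference of 2.20 ± 0.25 (4.59-fold, adjusted p = 2.61e-09). Its epithelial arrays were more widely spread (SD 0.50) than those of the other UGT members that passed, without reaching the mesenchymal ones. Ugt2b36 was at 9.7, 9.9 and 9.6 in the epithelium, against 7.9, 7.4 and 8.0 in the mesenchyme (1.97 ± 0.23, adjusted p = 5.33e-09). The remaining members did not pass. Ugt2b37 differed by 0.47 ± 0.23 (adjusted p = 0.10), with 6.1, 6.2 and 6.1 in the epithelium, against 5.5, 5.9 and 5.6 in the mesenchyme. Ugt2b1 was at 7.0, 7.8 and 7.1 in the epithelium, against 6.8, 7.1 and 7.3 in the mesenchyme, and Ugt2b38 at 7.0, 7.5 and 6.8 in the epithelium, against 7.2, 7.0 and 7.5 in the mesenchyme. The arrays of both tissues overlapped for these last genes.

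**Figure D2:**
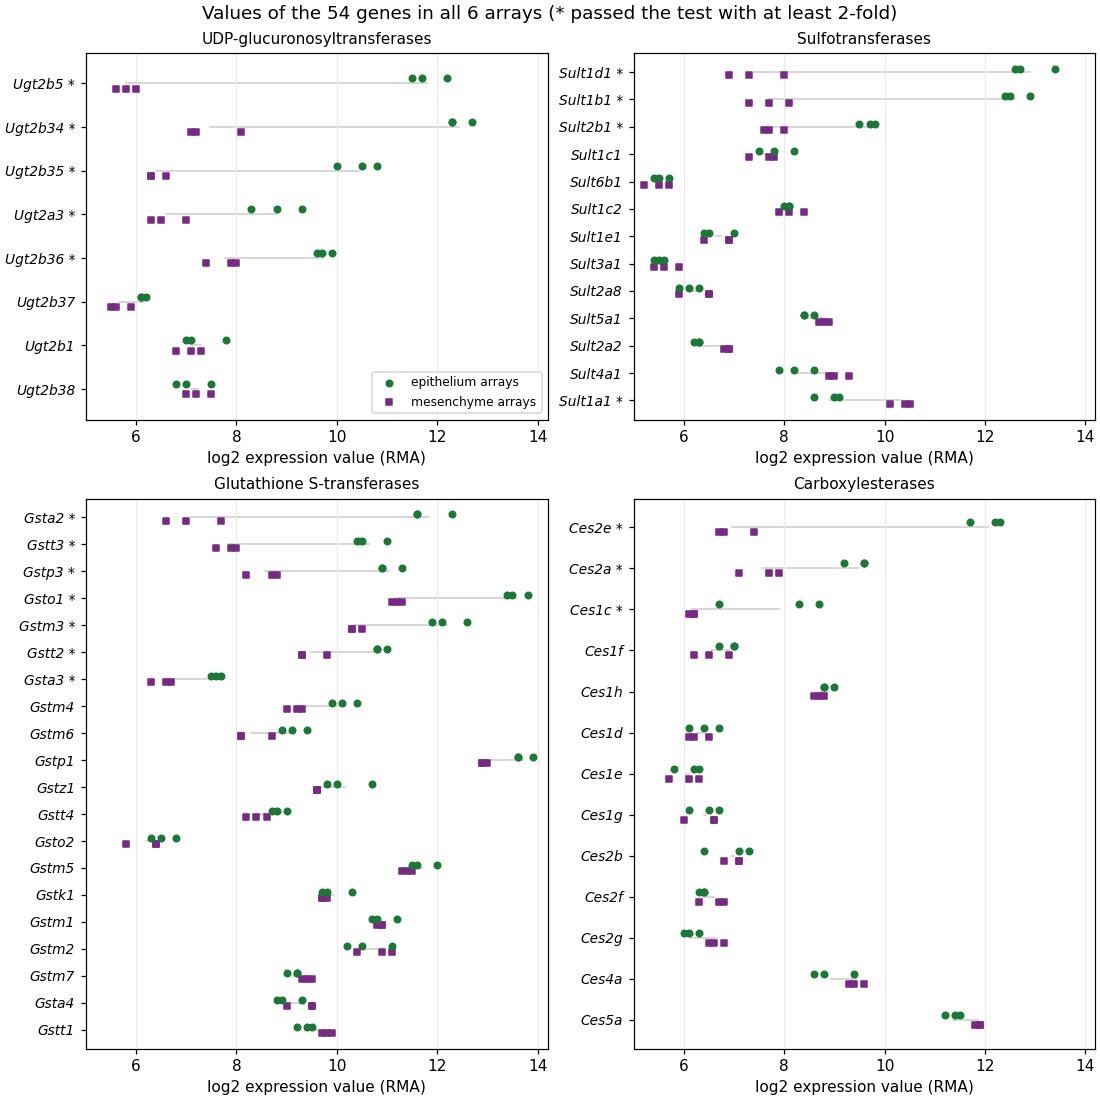
Log2 expression value (horizontal axis) of each of the 54 genes in the 3 epithelial arrays (green circles) and the 3 mesenchymal arrays (purple squares), by class, sorted by difference; grey lines join the tissue means and equal values overlie each other. Ugt2b5 lies between 11.5 and 12.2 in the epithelium and between 5.6 and 6.0 in the mesenchyme, and Sult1a1 is the gene with an asterisk whose mesenchymal arrays lie to the right.

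The members that passed and those that did not lay side by side on the chromosome. In the gene order of the assembly GRCm38.p6, 13 protein-coding genes run without interruption on chromosome 5 from Ugt2b34 to Sult1e1, and 11 of them were members. In this order, Ugt2b34 (4.97) was followed by Ugt2b1 (0.23), Ugt2b35 (4.03), Ugt2b36 (1.97), Ugt2b5 (6.00), Ugt2b37 (0.47), Ugt2a3 (2.20) and Ugt2b38 (-0.13), and after Ugt2a1 and Ugt2a2, for which no probe set named a single gene, by the sulfotransferase genes Sult1b1 (4.90), Sult1d1 (5.50) and Sult1e1 (-0.10). Thus 7 members of the run were higher in the epithelium, while 4 did not pass, and each of these 4 stood directly next to a gene that was higher.

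**Figure D3:**
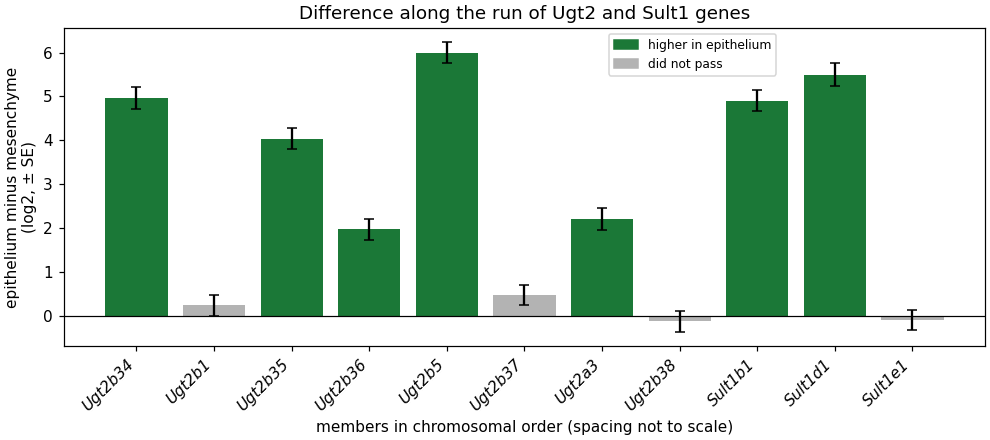
Difference between epithelium and mesenchyme (log2, vertical axis; error bars are the standard error from limma) of the 11 members on chromosome 5 in the order of the genes, with even spacing. Ugt2b1, Ugt2b37, Ugt2b38 and Sult1e1, between -0.13 and 0.47, stand among genes with differences of 1.97 to 6.00.

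The promoter windows of Ugt2b5, Ugt2b37 and Ugt2b38 are shown because these genes, with very unequal differences, share a long run of letters close to the start. Each window of 100 bases comes from RefSeq's GRCm38.p6 promoters (250 bases before to 50 after the start), on the strand of the gene. Capitals mark the longest run of letters, 62 bases, that all 3 promoters share. Each window was placed to begin 33 bases before this run, so the 62 positions match by choice of the window.
Ugt2b5: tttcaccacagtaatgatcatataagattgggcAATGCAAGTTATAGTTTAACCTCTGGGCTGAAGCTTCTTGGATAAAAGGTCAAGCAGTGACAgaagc
Ugt2b37: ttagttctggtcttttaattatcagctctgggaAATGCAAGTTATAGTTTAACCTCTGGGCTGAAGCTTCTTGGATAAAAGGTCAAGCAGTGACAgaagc
Ugt2b38: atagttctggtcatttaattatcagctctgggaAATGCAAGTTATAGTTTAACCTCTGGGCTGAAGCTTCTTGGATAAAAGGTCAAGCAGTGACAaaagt

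These windows lie at chr5:87140342-87140441 (Ugt2b5), chr5:87254807-87254906 (Ugt2b37) and chr5:87424208-87424307 (Ugt2b38), all on the minus strand. The shared run began 68 bases before the start of Ugt2b5, 85 before that of Ugt2b37 and 71 before that of Ugt2b38. The windows of Ugt2b5 and Ugt2b37 were identical at 77 of 100 positions, with an unbroken run of 67 bases, while these genes differed between tissues by 6.00 and 0.47. The window of Ugt2b38, which differed by -0.13, was identical to that of Ugt2b5 at 75 positions and to that of Ugt2b37 at 96. All these counts include the run of 62 bases on which the windows were placed. Before the run, the letters of Ugt2b5 differed from those of Ugt2b37 and Ugt2b38 at most positions. These genes are copies of each other, and promoters were found for 47 of the 54 members. Shared letters describe the windows and not the binding of any factor.

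The sulfotransferases included members with some of the largest differences and the only gene with the opposite direction. Sult1d1, which sulfates dopamine and other catecholamines in the mouse and is a pseudogene in humans, was at 12.7, 13.4 and 12.6 in epithelium A, B and C, against 7.3, 6.9 and 8.0 in mesenchyme A, B and C. The tissues lay far apart, by 5.50 ± 0.26 (45.3-fold, adjusted p = 1.87e-19), and the other probe set of the gene differed by 5.20 ± 0.24. Sult1b1, which sulfates phenols and thyroid hormones, had values of 12.4, 12.9 and 12.5 in the epithelium, against 7.7, 7.3 and 8.1 in the mesenchyme (4.90 ± 0.24, 29.9-fold, adjusted p = 4.96e-19). Mesenchyme C was the highest of its tissue for both genes. Sult2b1, which sulfates cholesterol and related sterols, was at 9.5, 9.8 and 9.7 in the epithelium, against 7.6, 7.7 and 8.0 in the mesenchyme, a smaller difference of 1.90 ± 0.23 (3.73-fold, adjusted p = 7.25e-09).

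Sult1a1, the broad phenol sulfotransferase, was lower in the epithelium. Its values were 8.6, 9.1 and 9.0 in the epithelium, against 10.5, 10.1 and 10.4 in the mesenchyme, without overlap. The difference of -1.43 ± 0.23 (2.70-fold, adjusted p = 2.85e-06) kept its call under every alternative tried for it. Within the Sult1 family, genes thus passed in both directions, with Sult1c1 (0.23 ± 0.24), Sult1c2 (-0.07 ± 0.23) and the estrogen sulfotransferase gene Sult1e1 (-0.10 ± 0.24) not passing. Sult4a1, a form known from brain, had values of 7.9, 8.6 and 8.2 in the epithelium, against 9.0, 8.9 and 9.3 in the mesenchyme. Its difference of -0.83 ± 0.24 was under 2-fold (adjusted p = 0.00412), and its other probe set showed none (0.00 ± 0.23). Sult2a2, a hydroxysteroid sulfotransferase, was at 6.3, 6.3 and 6.2 in the epithelium, against 6.9, 6.9 and 6.8 in the mesenchyme (-0.60 ± 0.22, adjusted p = 0.0290), also under 2-fold. Sult5a1 stood at 8.4, 8.6 and 8.4 in the epithelium, against 8.9, 8.7 and 8.8 in the mesenchyme, a difference of -0.33 ± 0.22 that did not pass (adjusted p = 0.255). The values of Sult2a8, Sult3a1 and Sult6b1 lay between 5.2 and 6.5 in all 6 arrays, and their differences between -0.20 and 0.07.

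Among the glutathione S-transferases, genes of the alpha, mu, omega, pi and theta classes were higher in the epithelium, and no gene passed in the other direction. Gsta2, an alpha-class enzyme that reduces lipid hydroperoxides, was at 11.6, 12.3 and 11.6 in epithelium A, B and C, against 6.6, 7.0 and 7.7 in mesenchyme A, B and C. The mesenchymal arrays were spread (SD 0.56) but stayed well below, and the difference was 4.73 ± 0.26 (26.6-fold, adjusted p = 9.04e-18). Gsta3 was higher in the epithelium by 1.07 ± 0.23 (adjusted p = 0.000186) and by 1.43 ± 0.24 in its other probe set. The first of these was 0.95 without mesenchyme C and 0.81 with arrays centred on spike-in controls, and then no longer reached 2-fold. Gsta4, which removes the lipid peroxidation product 4-hydroxynonenal, did not pass (-0.33 ± 0.24).

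Of the theta class, Gstt3 was at 10.4, 11.0 and 10.5 in the epithelium, against 7.9, 7.6 and 8.0 in the mesenchyme, and differed by 2.80 ± 0.23 (6.96-fold, adjusted p = 1.09e-12). Gstt2 was higher in the epithelium by 1.40 ± 0.23 (adjusted p = 3.89e-06), with no overlap between tissues. Their neighbours Gstt1 (-0.43 ± 0.23) and Gstt4 (0.43 ± 0.23) did not pass. The pi-class gene Gstp3 had values of 10.9, 11.3 and 10.9 in the epithelium, against 8.8, 8.7 and 8.2 in the mesenchyme (2.47 ± 0.24, 5.53-fold, adjusted p = 3.12e-11). Gstp1, the widespread pi-class enzyme, was at 13.6, 13.9 and 13.6 in the epithelium, against 12.9, 13.0 and 12.9 in the mesenchyme. Although its arrays did not overlap, the difference of 0.77 ± 0.23 was under 2-fold (adjusted p = 0.00563). A near-identical copy, Gstp2, may share its signal.

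Gsto1, an omega-class enzyme that reduces dehydroascorbate and disulfides, was at 13.4, 13.8 and 13.5 in the epithelium, against 11.3, 11.1 and 11.2 in the mesenchyme. The narrow groups differed by 2.37 ± 0.23 (5.16-fold, adjusted p = 3.59e-11), and by 2.53 ± 0.23 in its other probe set. Its neighbour Gsto2 did not pass (0.33 ± 0.24). The mu class, 7 genes next to each other, had 1 gene that passed. Gstm3 was at 12.1, 12.6 and 11.9 in the epithelium, against 10.3, 10.3 and 10.5 in the mesenchyme (1.83 ± 0.23, adjusted p = 2.85e-08), and its second probe set differed by 2.67 ± 0.25. Gstm4 (0.97 ± 0.23, adjusted p = 0.000712) and Gstm6 (0.83 ± 0.24, adjusted p = 0.00433) differed by just under 2-fold. The other mu genes Gstm1, Gstm2, Gstm5 and Gstm7 lay between -0.27 and 0.30, and Gstm5 had values of 11.5, 12.0 and 11.6 in the epithelium, against 11.5, 11.3 and 11.4 in the mesenchyme. The probe sets of Gstm7 went in opposite directions. The brighter over all arrays was at 9.0, 9.2 and 9.2 in the epithelium, against 9.3, 9.4 and 9.5 in the mesenchyme (-0.27 ± 0.22), and the other at 9.4, 10.1 and 9.4 in the epithelium, against 8.9, 9.0 and 8.7 in the mesenchyme (0.77 ± 0.24), and neither passed. Gstm1, whose 4 probe sets differed by -0.47 to 0.03, was at 10.8, 11.2 and 10.7 in the epithelium, against 10.8, 10.9 and 10.9 in the mesenchyme. Gstk1, a mitochondrial and peroxisomal enzyme (0.20 ± 0.23), and Gstz1, an isomerase of tyrosine breakdown (0.57 ± 0.24), did not pass. The core of the antioxidant response element through which Nrf2 induces GST genes, TGACNNNGC on either strand, was found in the promoters of 3 of 18 GST genes (Gsta3, Gstm5 and Gstm7) and in 12.4% of all promoters. Only 250 bases before to 50 after the start were searched, so elements farther away could not be found.

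Of the carboxylesterases, 1 gene accounted for the large difference of the class. Ces2e was at 11.7, 12.3 and 12.2 in epithelium A, B and C, against 6.7, 6.8 and 7.4 in mesenchyme A, B and C. The tissues differed by 5.10 ± 0.24 (34.3-fold, adjusted p = 1.90e-19). Ces2a, of the same family, whose members hydrolyse drug esters and acylglycerols, was at 9.2, 9.6 and 9.6 in the epithelium, against 7.7, 7.1 and 7.9 in the mesenchyme (1.90 ± 0.24, 3.73-fold, adjusted p = 2.40e-08). Ces2b (-0.07 ± 0.24), Ces2f (-0.23 ± 0.23) and Ces2g (-0.50 ± 0.23) did not pass, and their values lay between 6.0 and 7.3 in all arrays.

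Ces1c, which in the mouse is secreted into plasma, was the gene with the most uneven epithelial arrays. It was at 8.3 and 8.7 in epithelium A and B and at 6.7 in epithelium C, against 6.2, 6.2 and 6.1 in the mesenchyme. The difference of 1.73 ± 0.30 passed (adjusted p = 1.01e-05), but the epithelial SD of 1.06 was the largest of any member in either tissue, and the standard error is lowered by the spread that limma shares over all probe sets. It was 2.33 without epithelium C and 1.33 without epithelium B, and passed in both cases. Of the 10 hepatocyte markers, 5 were also lowest in epithelium C, namely Tat, Cyp2e1 and the 3 that were higher in the epithelium. Another 3 (Apoh, Hpx and Cyp3a11) were lowest in epithelium A, and Alb in epithelium B. Over all genes, epithelium C was the single lowest epithelial array for 3559 of 18161. Among the 5, the widest gap was that of the plasma protein gene Serpina1b. It was at 11.1, 11.4 and 10.0 in epithelium A, B and C, against 7.3, 7.1 and 7.6 in the mesenchyme. The gaps of the others were small, as for Ttr with 12.3, 12.6 and 12.2 in epithelium A, B and C. The part of the hepatocyte markers in the value of Ces1c was not tested. The other Ces1 genes, among them the lipid hydrolase gene Ces1d (0.13 ± 0.23) and Ces1e, whose protein holds beta-glucuronidase in the endoplasmic reticulum (0.07 ± 0.24), did not pass, with differences from 0.03 to 0.37. Ces1d, whose 3 probe sets differed by -0.10 to 0.13, was at 6.1, 6.7 and 6.4 in the epithelium, against 6.5, 6.1 and 6.2 in the mesenchyme. Ces4a was at 8.6, 9.4 and 8.8 in the epithelium, against 9.3, 9.6 and 9.4 in the mesenchyme (-0.50 ± 0.24, adjusted p = 0.0939). Ces5a, known from kidney and epididymis, was at 11.2, 11.5 and 11.4 in the epithelium, against 11.8, 11.9 and 11.9 in the mesenchyme (-0.50 ± 0.23, adjusted p = 0.0743). That probe set and another of Ces5a (-0.33 ± 0.23) have the suffix for probes that can read other transcripts. The probe set of Ces5a without it was at 6.6, 6.8 and 7.0 in the epithelium, against 6.8, 6.5 and 6.4 in the mesenchyme. Its difference went the other way (0.23 ± 0.23), and neither of these additional probe sets passed.

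The 18 members that were higher in the epithelium also shared a pattern between arrays. Mesenchyme C was the single highest mesenchymal array for 14 of the 18 genes (77.8%), and for 29.4% of all genes. Epithelial markers were highest there too, with a mean level of 8.67, 8.17 and 8.98 in mesenchyme A, B and C. On the linear scale, the 7 members with differences of at least 16-fold reached a median of 2.66%, 2.54% and 4.42% of their epithelial level in mesenchyme A, B and C, and the 6 epithelial markers 3.98%, 3.50% and 6.21%. The part of these values in the results was not tested. Without mesenchyme C, 17 of the 18 genes still passed, all but Gsta3. Epithelium B was the single highest epithelial array for 17 of the 18, and for 75.4% of all genes.

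The genes around these enzymes, taken in 9 lists, were also more often higher in the epithelium, apart from the peroxidases and the list of efflux pumps and uptake carriers, each with as many genes in either direction. The supply of both polar donors was represented. Of 6 genes of UDP-glucuronate supply and removal, 3 were higher in the epithelium: Gusb, a beta-glucuronidase that reverses the conjugation (2.20 ± 0.24), Ugdh, which makes UDP-glucuronate (1.60 ± 0.23), and the nucleotide sugar carrier Slc35b1 (1.07 ± 0.23). Of 11 genes of PAPS and sulfate supply, 5 were higher in the epithelium and none in the mesenchyme. Bpnt1, which clears the product left when PAPS has given its sulfate, led with 3.67 ± 0.24, followed by the anion exchanger Slc26a3 (3.03 ± 0.26) and Papss2, a PAPS synthase (2.23 ± 0.25). Over all genes, 8.19% were higher in the epithelium, against 15.9% in the mesenchyme.

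Of 18 genes of glutathione synthesis, reduction and breakdown, 6 were higher in the epithelium, led by the peptidase Anpep (3.50 ± 0.23), Cth, which makes cysteine (2.77 ± 0.25), and the glutaredoxin Glrx (2.57 ± 0.24). The transpeptidase-family gene Ggt5 was higher in the mesenchyme, with a difference of -1.43 ± 0.23. The 8 glutathione peroxidases divided evenly. Gpx2 of the gut epithelium (1.97 ± 0.25), Gpx3 (1.57 ± 0.23) and Gpx1 (1.23 ± 0.23) were higher in the epithelium, and Gpx8 (-4.53 ± 0.23), Gpx7 (-2.73 ± 0.24), both of the endoplasmic reticulum, and Gpx5 (-1.03 ± 0.23) were higher in the mesenchyme. Of 11 membrane-bound and other relatives of the glutathione transferases, 5 were higher in the epithelium, including the chloride channel protein genes Clic5 (3.90 ± 0.23) and Clic6 (2.00 ± 0.24) and the microsomal Mgst2 (2.00 ± 0.23). Clic4 (-2.10 ± 0.23) and Alox5ap (-1.40 ± 0.23) were higher in the mesenchyme.

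**Figure D4:**
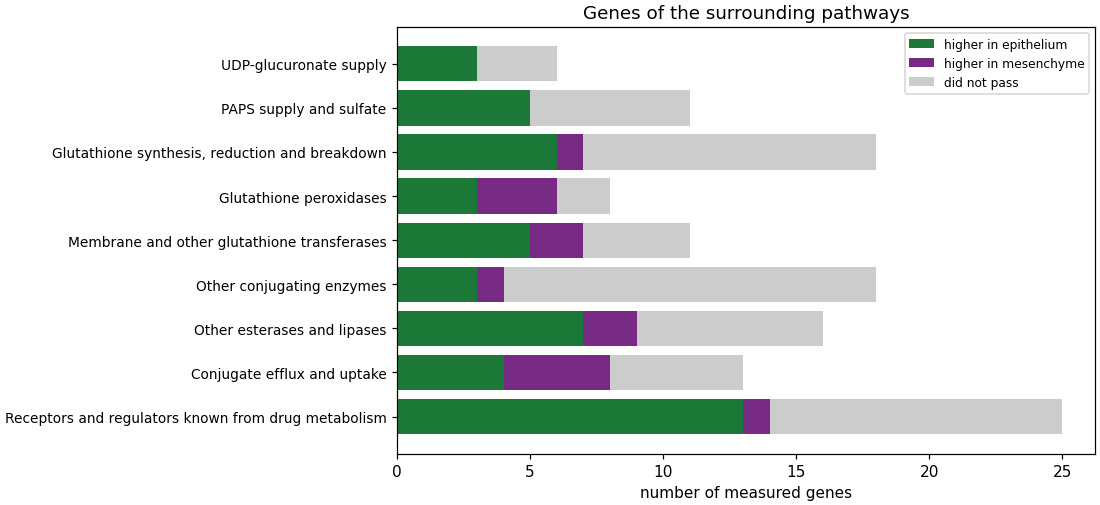
Number of measured genes (horizontal axis) in 9 lists of genes around the conjugating enzymes that were higher in the epithelium (green), higher in the mesenchyme (purple) or did not pass (grey). The longest green bar is that of the receptors and regulators, with 13 of 25 genes; the efflux and uptake list has 4 genes in each direction.

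Of 18 further conjugating and related enzymes, 3 were higher in the epithelium. These were Ephx2, a soluble epoxide hydrolase and not itself a conjugating enzyme (3.80 ± 0.23), the N-acetyltransferase gene Nat2 (1.67 ± 0.26) and the glycine conjugating Glyat (1.20 ± 0.23). The histamine methyltransferase gene Hnmt was higher in the mesenchyme (-1.90 ± 0.23), and 14 did not pass. Of 16 other esterases and lipases, 7 were higher in the epithelium, led by the arylacetamide deacetylase Aadac (4.27 ± 0.25), Cmbl (3.00 ± 0.24) and Pon3 (2.40 ± 0.25). The monoacylglycerol lipase Mgll (-2.63 ± 0.23) and acetylcholinesterase Ache (-1.43 ± 0.24) were higher in the mesenchyme.

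The efflux pumps and uptake carriers took both directions. Abcc2, the apical export pump for glucuronides and glutathione conjugates, was at 11.7, 12.4 and 12.4 in epithelium A, B and C, against 5.9, 6.3 and 6.2 in mesenchyme A, B and C (6.03 ± 0.24), and Abcb1a (1.93 ± 0.25) and Abcg2 (1.5 ± 0.24) were also higher in the epithelium. The related pumps Abcc4 (-2.67 ± 0.23), Abcc1 (-2.23 ± 0.23) were higher in the mesenchyme, as were the carrier Slco3a1 (-2.10 ± 0.22) and Abcc3 (-1.10 ± 0.23). Of 25 receptors and regulators of drug metabolism, 13 were higher in the epithelium. The bile acid receptor Nr1h4 (3.67 ± 0.24), Hnf4g (3.27 ± 0.28) and Cdx1 (3.23 ± 0.24) led them. Nr1i3, which encodes CAR (2.63 ± 0.23), Nr1i2, which encodes PXR (1.43 ± 0.24), and Nfe2l2, which encodes Nrf2 (1.00 ± 0.23), were among them. The difference of Nfe2l2 lay exactly at the 2-fold threshold. Ahr, the Ah receptor gene, was higher in the mesenchyme, with a difference of -2.53 ± 0.25.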

How the data were processed

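The table holds deposited log2 values, 1 per probe set of an Affymetrix mouse genome array, which the submitters' processing notes say the authors made by RMA; version and settings are not given in the sources used here. They were rounded to 0.1, carried no detection calls and were used without further scaling. Symbols came from the platform annotation (34945 of 45037 probe sets had 1 symbol, after 64 controls were set aside) and were updated through RefSeq's table for GRCm38.p6. limma 3.58.1 (R 4.3.3) was fitted by lmFit and eBayes to all 45037 probe sets with no covariate (4 residual and 31.7 prior degrees of freedom). A gene took the row of its probe set with the highest mean, with Benjamini-Hochberg adjustment over 18161 genes. The number of arrays limits precision. Given these degrees of freedom, standard errors and p-values rest mostly on the spread that limma shares over all probe sets, and less on that of the gene itself. They cover only differences between these pools, which had been selected. Fold values are understated near background, and closely related copies may share probe signal.

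All members were accounted for. Values in every array are given for the members with the largest differences of each class (up to 5 higher in the epithelium and 4 in the mesenchyme), the 2 brightest that did not pass and genes whose probe sets disagreed. Other genes with array values, such as Sult2a2, Ugt2b37 and Serpina1b, and Abcc3 were chosen after their values were seen. Of the other lists, up to 3 genes per direction were named, and Nr1i3, Nr1i2 and Nfe2l2 besides. Members, lists and tests were chosen with earlier results of these data known. Arrays of the same letter were not paired, since the labels do not say which pools share embryos. Deviations of same-letter arrays from their tissue means correlated at -0.31, -0.15 and 0.12. Those of arrays of different letters correlated at -0.25 to 0.36, so these values cannot settle the pairing. Alternatives were other scalings, a filter on dim probe sets, other model settings, leaving out each array, and other rules for probe sets.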

Additional observations from a re-analysis of the deposited data

How the results depend on the processing

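With scaling to equal medians, quantiles, cyclic loess, ribosomal protein genes or spike-in controls, the median difference of all genes (-0.17) shifted by 0.30, 0.27, 0.21, 0.32 and -0.26. The shares of all genes that passed towards the epithelium and towards the mesenchyme, 8.19% and 15.9% as deposited, came to 11.8% and 11.5%, 10.6% and 11.9%, 9.86% and 12.3%, 11.8% and 11.2%, and 6.21% and 21.3% under these scalings. No member that passed turned its direction in any alternative. All 18 genes higher in the epithelium and Sult1a1 kept their calls under these scalings, except Gsta3 under spike-in centring (0.81). The mean of the spike-in controls was 10.6 to 10.8 in 5 arrays and 9.80 in mesenchyme B. Gstm4 and Gstm6 passed in addition under the first 4 scalings, and Gstp1 under equal medians and ribosomal centring. SULT genes and probe sets higher in the mesenchyme numbered 1 each, 2 each with spike-in centring, and 1 to 2 each when single arrays were left out, where Sult4a1 (-1.02) passed without epithelium B. At an adjusted p under 0.05 with no fold threshold they numbered 3 each, 1 CES probe set was higher in the mesenchyme (Ces2f), and over all genes 2513 were higher in the epithelium and 4977 in the mesenchyme, against 1488 and 2892 with the threshold. With dim probe sets left out, 32 member genes remained, and 14 of the 18 genes higher in the epithelium kept their calls. These were 3 UGT, 3 SULT, 6 GST and 2 CES genes, since Ugt2b35, Ugt2a3, Gsta3 and Ces1c were no longer tested. With a replicate block, the same 18 genes (5 UGT, 3 SULT, 7 GST and 3 CES) and Sult1a1 passed. Of 894 values of member genes over all alternatives, 2 lost their call, 20 gained one and none reversed. Signal near background limits the genes that did not pass at low values.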

Other observations

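Some probe sets of these families named several genes and so were not members, among them all those of the Ugt1a locus, whose transcripts share their last exons. Of 6 such probe sets, 3 named 8 Ugt1a genes together, and all 3 were higher in the epithelium. The one with the largest difference was at 12.6, 13.2 and 13.0 in epithelium A, B and C, against 8.1, 7.8 and 7.9 in mesenchyme A, B and C, a difference of 5.0 ± 0.23 (32-fold, limma adjusted p = 1.02e-19 over probe sets). The others differed by 4.07 ± 0.23 and 3.23 ± 0.23, and which first exons were used cannot be read from them. The probe set shared by Gsta1, Gsta2 and Gm3776 was higher in the epithelium by 3.80 ± 0.26, while those shared by Ugt2a1 and Ugt2a2 (0.43 ± 0.23) and by Ces3a and Ces3b (-0.10 ± 0.22) did not pass.

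Member probe sets covered 8 of 19 protein-coding UGT genes of these families in GRCm38.p6, 13 of 21 SULT genes, 20 of 22 GST genes and 13 of 19 CES genes.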
